A study of Mus musculus with 25 samples.

Results

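The transcription factors that direct blood stem cells toward the myeloid lineages were followed in HSLAM cells, a mouse bone marrow population gated as LSK+ CD150+ CD48- and enriched in hematopoietic stem cells. The set holds 10 of the 23116 genes of the deposited RNA-seq table: the C/EBP family (*Cebpa*, *Cebpb*, *Cebpd*, *Cebpe* and *Cebpg*) and *Spi1*, *Gfi1*, *Irf8*, *Klf4* and *Irf4*. They were taken by name and not by a rule on their values, though earlier results of these data were known when the set was chosen. RNA was sequenced from 3 *Znf143 f/f* and 3 *Znf143 -/-* libraries. All mice carried the floxed *Znf143* allele, were labelled as C57BL/6, were males of 8 to 12 weeks, and received the middle dosage of tamoxifen by intraperitoneal injection for 10 days. The *Znf143 -/-* mice also carried Rosa26ERT2-Cre, which the *Znf143 f/f* littermates lacked. This Cre is driven from a locus active in most cells and is not restricted to blood. The sample labels name the deleted genotype CTCF KO, whereas the study's methods name it *Znf143 -/-*.

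C/EBP proteins bind DNA as dimers through a basic leucine zipper. *Cebpa* is needed for the step from common myeloid to granulocyte-macrophage progenitors and restrains cycling of stem cells, while *Cebpe* acts late in granulocyte maturation. PU.1, the ETS factor encoded by *Spi1*, acts with C/EBP proteins at many myeloid promoters. *Gfi1* encodes a zinc finger repressor protein that granulocyte development requires and that preserves stem cell function, and *Irf8*, *Klf4* and *Irf4* act in monocyte and dendritic cell fates. The study addressed whether ZNF143, together with CTCF, holds promoters such as that of *Cebpa* in contact with their enhancers.

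On GRCm38, *Cebpa* (ENSMUSG00000034957.10) spans bases 35119293 to 35121928 of the plus strand of chromosome 7, where the annotated antisense gene *Gm45091* overlaps it. Its promoter and its downstream enhancer are given as the stretches between the primers that the study designed for ChIP at both sites, because the study's question on *Cebpa* turns on their contact. Primer stretches are in capitals, and both sequences are read from the plus strand of GRCm38. The promoter stretch of 167 bases, chr7:35119112-35119278, ends 15 bases before the annotated start of the gene. The enhancer stretch of 110 bases, chr7:35154805-35154914, has its middle 35.6 kb downstream of that start.
Cebpa promoter: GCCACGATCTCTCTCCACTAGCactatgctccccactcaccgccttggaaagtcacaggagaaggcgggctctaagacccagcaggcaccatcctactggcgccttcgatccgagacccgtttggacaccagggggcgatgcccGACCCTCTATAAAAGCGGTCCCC
Cebpa enhancer: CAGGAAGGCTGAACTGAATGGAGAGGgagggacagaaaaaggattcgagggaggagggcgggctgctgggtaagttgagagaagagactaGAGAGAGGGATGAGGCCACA

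Short sequence runs were searched on both strands of these stretches and of RefSeq promoter windows (GRCm38.p6, 250 bases before to 50 after a start site), which were found for 7 of the 10 factors. The searched runs were ACTACAA and TTCCCAG, parts of the ZNF143 site, TTGCNNAA, the core of a C/EBP site, and GAGGAAG, an ETS core that PU.1 can bind. None of these 4 runs was found in the *Cebpa* promoter or enhancer stretch. An exact run misses variants of a site, so this does not show that a site is absent. No run for CTCF was searched. By ChIP, the study reported both ZNF143 and CTCF at the *Cebpa* promoter and at the enhancer. The run TTCCCAG occurred in 11.1% of the 32851 windows and, among the factors, in 1 of the 2 windows of *Irf8*. The run TTGCNNAA occurred in 10.8% of windows and, among the factors, in 1 of the 2 windows of *Gfi1*. The runs ACTACAA (3.24% of windows) and GAGGAAG (13.6%) were found at none of the factors. Both matches are given with 6 bases on either side and the match in capitals, since *Gfi1* and *Irf8* recur below. The *Irf8* stretch, chr8:120738391-120738409 on the plus strand, begins its match 242 bases before an internal start site. The *Gfi1* stretch, chr5:107725935-107725954 on the minus strand, begins its match 143 bases before a start site that is internal as well. Both stretches lie within the annotated body of their gene. Neither stretch overlaps an annotated exon of its gene.
Irf8: cagggtTTCCCAGccgtct
Gfi1: gtaggtTTGCTGAActgctg

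Levels are given as FPKM, fragments per kilobase of gene length relative to the sequencing depth, each library being rescaled by its median-of-ratios size factor. The third *Znf143 -/-* library had been deposited with the FPKM divisor of the second although its genes held 1.1967 times as many fragments, which the rescaling removes. Genes held between 38643255 and 57895793 fragments per library. *Zfp143*, the mouse symbol of *Znf143*, had an FPKM of 3.09, 4.45 and 3.68 in *Znf143 f/f* and of 0.156, 0.299 and 0.272 in *Znf143 -/-* libraries (log2 fold change -3.50, adjusted p = 0.001 from limma). The libraries were not equally spaced. Over genes with at least 20 fragments in a pair, the first and the third *Znf143 f/f* library differed by a median chi-square of 2.77 times sampling noise, and the second and the third *Znf143 -/-* library by 3.02 times. The remaining 4 pairs within a genotype differed by 22.81 to 29.56 times sampling noise. Both close pairs exceeded sampling noise and were counted as separate mice, as the study's methods describe 3 per genotype. Whether a close pair shares an animal or an RNA sample was not tested. Each call below is therefore also given with both close pairs averaged, which leaves 2 libraries per genotype, a choice made after the data were seen.

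Among the 10 factors, *Gfi1* rose and *Cebpa* fell in *Znf143 -/-* HSLAM cells at an adjusted p under 0.05 (limma on log2(FPKM + 0.1) with Benjamini-Hochberg adjustment). *Irf4* lay under the minimum mean FPKM of 0.1 and was not tested. One higher and 1 lower call among 9 tested factors stand beside 3% of 19293 genes called higher and 2.99% called lower. With FPKM as deposited, *Gfi1* alone was called, where 2.74% of genes were called higher and 1.58% lower. With the close libraries averaged, none of the 9 factors was called at an adjusted p under 0.05 by limma, 4 had an unadjusted p under 0.05 (9.9% of all genes did), and 0.0932% and 0.150% of all genes were called higher and lower. *Zfp143* was still called in that fit (adjusted p = 0.0322). In this bulk RNA, a change in the share of cells that express a factor and a change of its RNA per cell cannot be told apart. No overlap between genotypes was seen for 5 of the 9 factors, higher in *Znf143 -/-* for *Gfi1*, *Cebpd* and *Irf8* and lower for *Cebpa* and *Spi1*. Across all genes tested, 15.4% lay higher and 15.3% lower without overlap. The median log2 fold change of the 9 factors was 0.11, beside 0.006 over all genes tested.

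**Figure D1:**
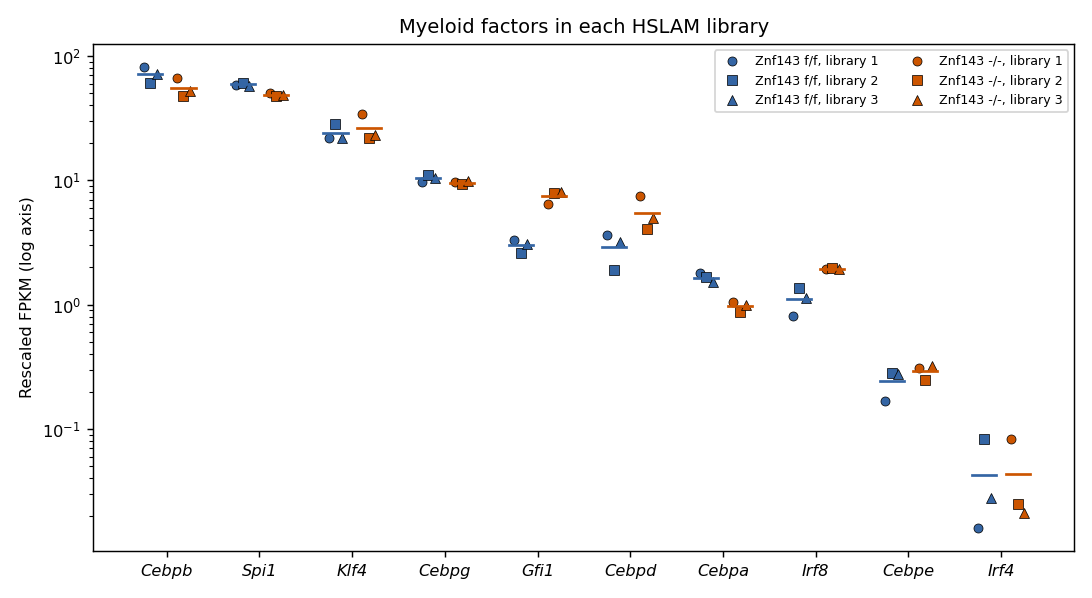
Rescaled FPKM (log axis) of the 10 factors in each library, in order of their mean in Znf143 f/f; points are libraries and bars are means of 3 libraries. The Znf143 -/- points lie apart from the Znf143 f/f points for Gfi1, Cebpd and Irf8 (above) and for Cebpa and Spi1 (below), and the gap between genotypes is narrowest for Cebpd and Spi1.

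Levels per gene length covered more than 3 orders of magnitude. In *Znf143 f/f* cells the order of mean FPKM was *Cebpb* (71.4), *Spi1* (59.1), *Klf4* (24.0), *Cebpg* (10.4), *Gfi1* (2.99), *Cebpd* (2.92), *Cebpa* (1.65), *Irf8* (1.10), *Cebpe* (0.241) and *Irf4* (0.0424). Neighbours in this order overlapped in their ranges only for *Cebpb* with *Spi1* and for *Gfi1* with *Cebpd*. In *Znf143 -/-* cells the order was the same except that *Irf8* (1.95) stood above *Cebpa* (0.975), with ranges that did not overlap in either genotype.

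Of the C/EBP family, *Cebpa* had an FPKM of 1.78, 1.66 and 1.52 in *Znf143 f/f* and of 1.05, 0.876 and 0.999 in *Znf143 -/-* libraries. All *Znf143 -/-* values lay below all *Znf143 f/f* values, and each rests on 113 to 214 fragments, a counting error of 6.84 to 9.41%. The *Znf143 f/f* mean of 1.65 ± 0.132 (SD, n = 3) stood against a *Znf143 -/-* mean of 0.975 ± 0.0886 (SD, n = 3), or 59.0% of it. Its log2 fold change was -0.71 (standard error 0.15, 95% interval -1.07 to -0.34, adjusted p = 0.0463 from limma). The adjusted p was 0.178 with FPKM as deposited and 0.501 with the close libraries averaged, and the log2 fold change then stood at -0.60 and -0.68. The two-sided exact permutation test gave p = 0.1 for this and every other factor without overlap, the smallest that 3 against 3 libraries allow. Fragments from *Gm45091* cannot be told apart from those of *Cebpa* where both overlap, since the library kit does not mark strand. The study itself reported a significant fall of *Cebpa* mRNA, relative to beta-actin, in the same sorted population. It also reported less contact between the *Cebpa* promoter and the enhancer by chromosome conformation capture in lineage- c-kit+ cells.

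*Cebpb*, the most abundant factor of the set and one induced in emergency granulopoiesis, had an FPKM of 81.5, 60.6 and 72.0 in *Znf143 f/f* and of 66.2, 47.8 and 52.0 in *Znf143 -/-* libraries. The first *Znf143 -/-* library lay within the *Znf143 f/f* range, and the difference did not pass the test (log2 fold change -0.37, 95% interval -0.75 to 0.01, adjusted p = 0.218 from limma). *Cebpd*, an acute phase and stress response member, had 3.65, 1.91 and 3.19 against 7.49, 4.06 and 4.94. Its *Znf143 -/-* libraries all lay above the others, but the spread within each genotype was wide, the second *Znf143 f/f* library lying lowest and the first *Znf143 -/-* library highest (log2 fold change 0.89, 95% interval 0.17 to 1.62, adjusted p = 0.138). The libraries that stand apart in *Cebpd* are those outside the close pairs. *Cebpb* and *Cebpd* are overlapped on the other strand by the bodies of *Tmem189* and *Spidr*.

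*Cebpg*, a broadly expressed dimer partner without a strong activation domain, ranged from 9.70 to 11 in *Znf143 f/f* and from 9.28 to 9.83 in *Znf143 -/-* libraries (log2 fold change -0.11, 95% interval -0.32 to 0.10, adjusted p = 0.491 from limma). Its gene lies on the same chromosome as *Cebpa*, at 35046422 to 35056573 on the minus strand. *Cebpe* rested on 8 to 23 fragments per library, with an FPKM of 0.168 to 0.280 in *Znf143 f/f* and 0.247 to 0.319 in *Znf143 -/-*. A difference in *Cebpe* was not detectable at this depth, where counting error alone was 20.9 to 35.4% (95% interval of the log2 fold change -0.40 to 0.83).

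*Gfi1* (chromosome 5, 107716657 to 107726036, minus strand) had the largest log2 fold change of the 9 factors in size. *A430072P03Rik* overlaps its body on the other strand. It stood at an FPKM of 3.29, 2.61 and 3.07 in *Znf143 f/f* and of 6.45, 7.85 and 8.09 in *Znf143 -/-* libraries, from 401 to 1498 fragments. The lowest *Znf143 -/-* library was well above the highest *Znf143 f/f* library. The mean rose from 2.99 ± 0.348 (SD, n = 3) to 7.46 ± 0.888 (SD, n = 3), a ratio of 2.5. The log2 fold change was 1.29 (standard error 0.14, 95% interval 0.96 to 1.62, adjusted p = 0.00568 from limma), and 1.40 with FPKM as deposited (adjusted p = 0.0108). With the close libraries averaged it stayed at 1.29 (95% interval 0.73 to 1.84, adjusted p = 0.129).

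*Spi1* (chromosome 2, 91082390 to 91115756, plus strand) had an FPKM of 58.9, 60.9 and 57.5 in *Znf143 f/f* and of 50.3, 48.0 and 48.1 in *Znf143 -/-* libraries. The spread within each genotype was the narrowest of the abundant factors, and the genotypes did not overlap. The difference of -0.28 on the log2 scale (95% interval -0.45 to -0.10) had an adjusted p of 0.0757 from limma. With FPKM as deposited, the third *Znf143 -/-* library stood at 57.7, within the *Znf143 f/f* values of 55.2 to 58.4, and the adjusted p was 0.582.

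*Irf8* had an FPKM of 0.807, 1.36 and 1.13 in *Znf143 f/f* and of 1.95, 1.98 and 1.93 in *Znf143 -/-* libraries. The *Znf143 -/-* values lay close together and above all *Znf143 f/f* values (log2 fold change 0.80, 95% interval 0.32 to 1.28, adjusted p = 0.0673 from limma). *Irf8* (chromosome 8, 120736358 to 120756694, plus strand) overlaps the annotated gene *Gm20388* on the same strand, so that its fragments are uncertain where both share exons. *Klf4*, also a stress-responsive gene, had 21.7, 28.2 and 22.0 against 34.0, 21.8 and 23.0, with the genotypes overlapping (adjusted p = 0.773). *Irf4* had 3, 20 and 6 fragments in *Znf143 f/f* and 18, 6 and 6 in *Znf143 -/-* libraries, where 3 fragments were taken as the least that is told apart from 0.

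**Figure D2:**
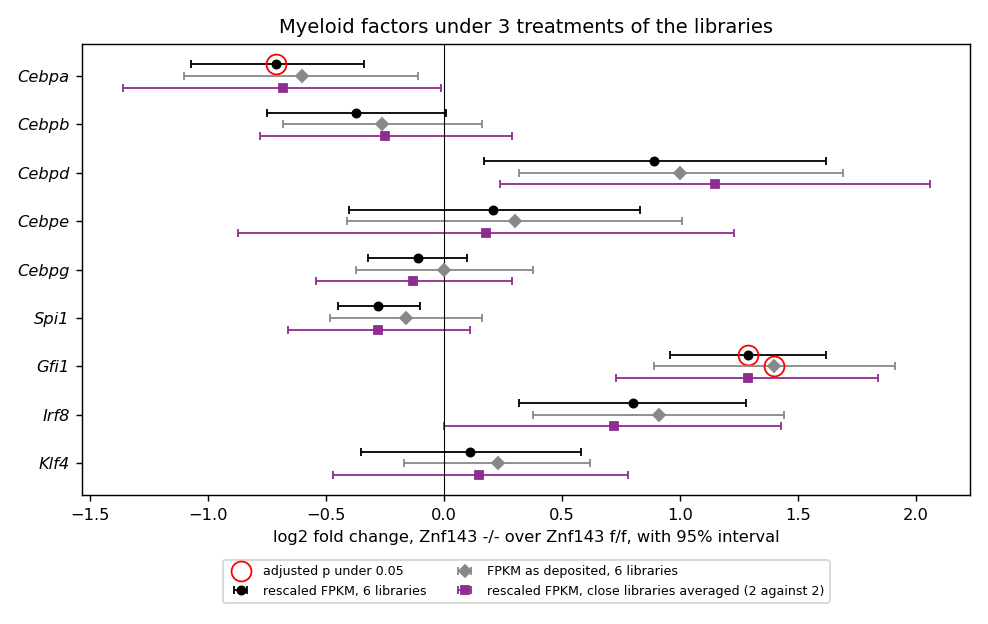
Log2 fold change of the 9 tested factors (Znf143 -/- over Znf143 f/f) with 95% intervals, for rescaled FPKM of 6 libraries, FPKM as deposited, and rescaled FPKM with the close libraries averaged; red circles mark an adjusted p under 0.05. Gfi1 is circled for both fits of 6 libraries, Cebpa for the rescaled one, and no factor for the averaged libraries.

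Ratios of factors within a library do not depend on how libraries are scaled, and were computed after the values were seen, as a description. The FPKM of *Gfi1* was 1.84, 1.57 and 2.02 times that of *Cebpa* in *Znf143 f/f* libraries and 6.15, 8.96 and 8.10 times in *Znf143 -/-* libraries. The mean of this ratio was 1.81 ± 0.225 (SD, n = 3) against 7.74 ± 1.44 (SD, n = 3). Relative to *Spi1*, *Cebpa* stood at 0.0303, 0.0272 and 0.0264 against 0.0208, 0.0183 and 0.0208. The *Cebpa* to *Spi1* ratio thus lay lower in all *Znf143 -/-* libraries, without the divisor of the third library entering it. *Irf8* relative to *Spi1* was 0.0137, 0.0224 and 0.0196 against 0.0387, 0.0412 and 0.0401. Within the C/EBP family, *Cebpd* relative to *Cebpb* was 0.0447, 0.0315 and 0.0444 against 0.113, 0.0849 and 0.0951. *Cebpa* relative to its neighbour *Cebpg* was 0.184, 0.151 and 0.146 against 0.109, 0.0945 and 0.102. These ratios are not free of the closeness of library pairs. Most set a factor that stood higher over one that stood lower. Their separation thus follows largely from the values above and adds no support.

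**Figure D3:**
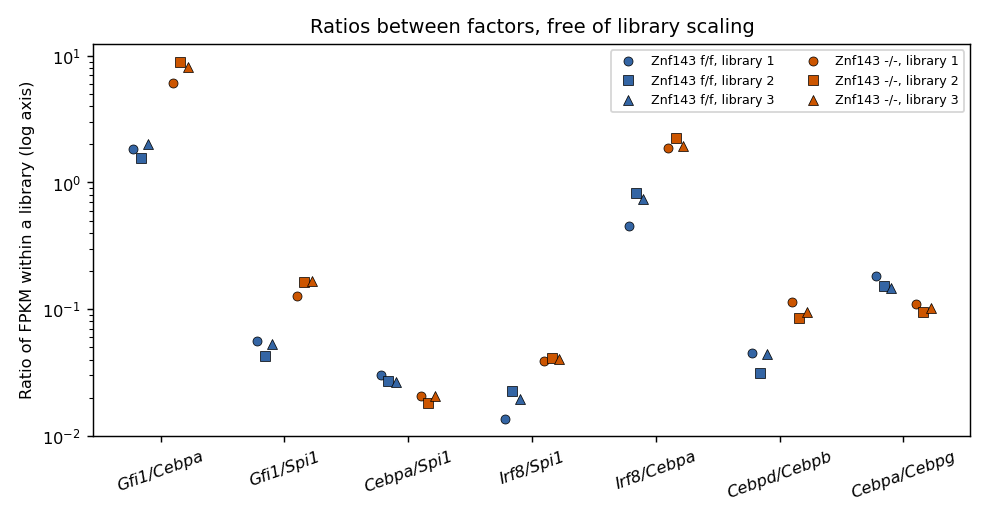
Ratio of FPKM between factors within each library (log axis); points are libraries, 3 per genotype. The 7 ratios were computed after the values were seen. Each separates the genotypes without overlap, which follows largely from the levels of the factors. Gfi1 over Cebpa does so by the widest distance, with means of 1.81 and 7.74.

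Around *Cebpa*, 7 annotated protein-coding genes lie wholly within 300 kb, of which 4 passed the filter. Of these 4, limma called *Faap24* higher and 0 lower, beside 3% and 2.99% of all genes tested. *Pepd* and *Gpatch1* had an unadjusted p of 0.00964 and 0.0246 from limma, where 24.2% of all genes had one under 0.05. *Faap24*, a DNA repair gene of the Fanconi anemia pathway whose start lies 277.5 kb downstream, had an FPKM of 12.1, 11.3 and 11 in *Znf143 f/f* and of 15.8, 14.7 and 14.4 in *Znf143 -/-* libraries, and rose by a log2 fold change of 0.38 (adjusted p = 0.0499 from limma). The call of *Faap24* was lost with FPKM as deposited (0.123), by voom (0.0627) and with the close libraries averaged (0.502). *Pepd*, a dipeptidase gene with its start at -206.9 kb, had 39.1, 41.5 and 36.7 against 25.2, 31.9 and 31.4, without overlap (log2 fold change -0.41, adjusted p = 0.0893). *Gpatch1*, 199.1 kb downstream, had 3.78, 4.14 and 4.24 against 2.91, 3.13 and 3.51 (log2 fold change -0.34, adjusted p = 0.143). *Gpatch1* and *Faap24* did not overlap between genotypes either, as was so for 15.3% of all genes lower and 15.4% higher. *Cebpg* lies between *Pepd* and *Cebpa*, at -62.7 kb. *Lrp3* and *Rhpn2* lay under the filter, and *Slc7a10* was not found in the table.

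**Figure D4:**
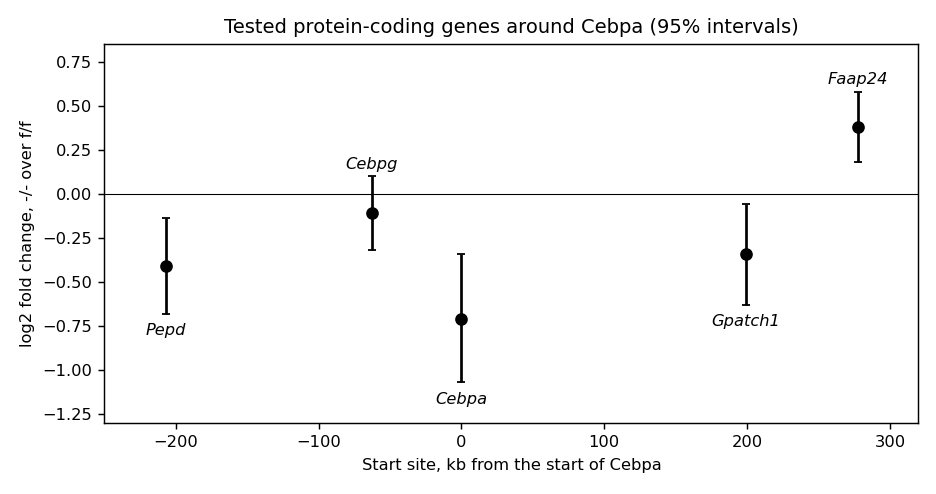
Log2 fold change with 95% interval of Cebpa and the 4 tested protein-coding genes within 300 kb of it, against the distance of their start sites from that of Cebpa. Cebpa has the lowest value (-0.71) and Faap24 the highest (0.38).

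The genes whose pattern over the 6 libraries was most like that of *Cebpa* were sought on the log2 scale among the 12536 genes that averaged an FPKM of 1 or more. The highest Pearson r was 0.998 for *Tmem170b*, followed by 0.997 for *Slc25a29*, a mitochondrial carrier of basic amino acids, and 0.996 for *Hdac11*, a histone deacetylase. *Slc25a29* had an FPKM of 3.01, 2.41 and 2.24 in *Znf143 f/f* and of 1.16, 0.894 and 1.02 in *Znf143 -/-* libraries, a larger relative difference than that of *Cebpa* (log2 fold change -1.23). The lowest r was -0.998 for *Smyd4*, -0.995 for *Dtx2* and -0.992 for *Ap2a2*. All of these r are a description over 6 points that share libraries, depth and genotype.

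Of 30 related and partner factors, 29 were tested (median log2 fold change -0.06). Of these, 1 was called higher and 1 lower, beside 3% and 2.99% of all genes tested. *Gata1*, the erythroid and megakaryocyte factor that opposes PU.1, had an FPKM of 22.4, 21.2 and 21.2 in *Znf143 f/f* and of 33.7, 37.6 and 36.4 in *Znf143 -/-* libraries (log2 fold change 0.73, adjusted p = 0.00569 from limma). *Runx1*, a stem cell factor that acts upstream of *Spi1*, had 8.60, 8.24 and 9 against 6.17, 6.38 and 6.59 (log2 fold change -0.43, adjusted p = 0.04), and 0.389 was its adjusted p with FPKM as deposited. With the close libraries averaged, the adjusted p was 0.199 for *Gata1* and 0.513 for *Runx1*. *Gfi1b*, the paralog of *Gfi1*, had values of 49.4 to 61.3 in *Znf143 -/-* against 66.5 to 78.8 in *Znf143 f/f* libraries, and its difference did not pass the test (adjusted p = 0.117).

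Of 27 myeloid genes known as targets of these factors, 24 were tested, with a median log2 fold change of 0.47. Of these 24, 7 were called higher and 0 lower (adjusted p under 0.05, limma), beside 3% and 2.99% of all genes tested. At an unadjusted p under 0.05, 11 were higher and 3 lower, where 24.2% of all genes passed in either direction. Voom called 8 higher and 1 lower, and of all genes 3.40% higher and 3.86% lower. With the close libraries averaged, 0 were called by limma, and 13 had an unadjusted p under 0.05, beside 9.9% of all genes. The 7 were *Csf1r*, *Elane*, *Ctsg*, *Camp*, *Ngp*, *Lcn2* and *S100a8*, and all 7 also stand in a list of markers of other cell types. *Elane* and *Ctsg*, serine proteases of neutrophil granules, had 17, 4 and 35 and 4, 0 and 13 fragments in *Znf143 f/f* libraries. In *Znf143 -/-* libraries they had 128, 528 and 563 and 81, 194 and 215 fragments. Both genes thus had fewer fragments in each *Znf143 f/f* library than in any *Znf143 -/-* library. *Lcn2*, which encodes an iron-sequestering granule protein, had an FPKM of 0.189, 0.218 and 0.147 against 1.51, 1.92 and 1.78 (log2 fold change 2.69, adjusted p = 0.00135). *Csf1r*, the receptor for the monocyte growth factor, had 1, 0 and 3 fragments in *Znf143 f/f* and 40, 63 and 56 in *Znf143 -/-* libraries. Its FPKM was 0.00535, 0 and 0.014 against 0.186, 0.264 and 0.197. *Csf1r* thus reached the minimum mean FPKM of 0.1 only through the *Znf143 -/-* libraries, and its call as higher was close to fixed by that filter. Other target genes did not pass the test, such as *Lyz2*, the lysozyme gene, with a log2 fold change of -0.38 (adjusted p = 0.0729), and *Csf3r*, the granulocyte growth factor receptor, with 0.22 (adjusted p = 0.487).

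**Figure D5:**
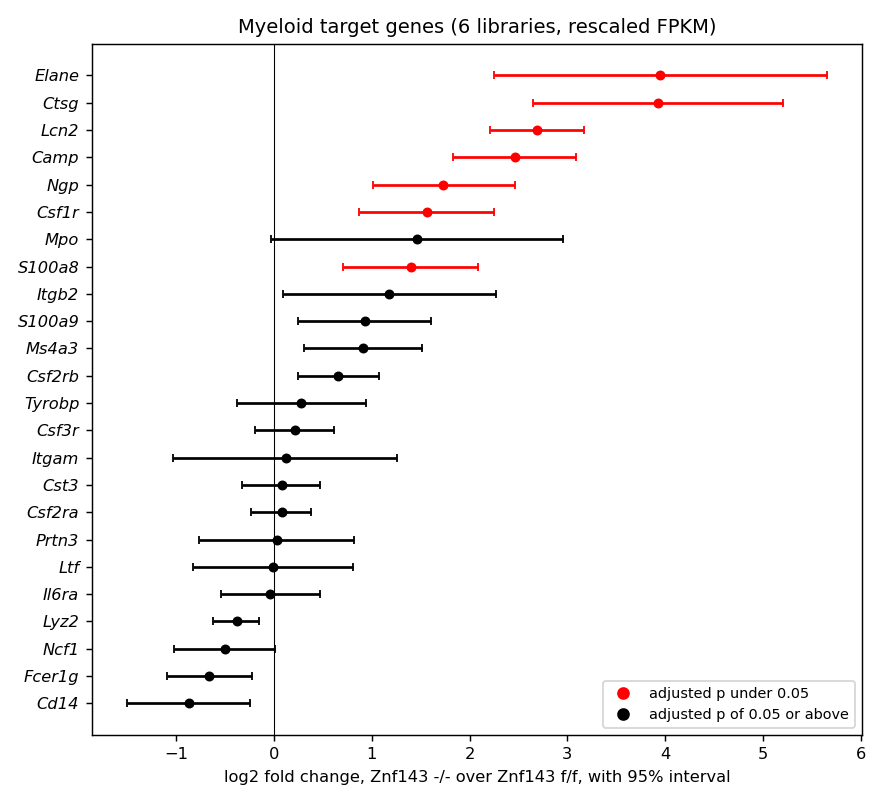
Log2 fold change with 95% interval of the 24 tested myeloid target genes, rescaled FPKM of 6 libraries; red marks an adjusted p under 0.05. The 7 called genes all lie to the right of 0, with Elane (3.95) and Ctsg (3.92) farthest, and the intervals of Elane, Ctsg and Mpo are the widest.

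The stem cell gate was checked by 13 stem cell markers, all of which were detected in every library, with a median log2 fold change of -0.27. *Ly6a* was called higher and *Mecom* lower, and 3 of the 13 had a positive log2 fold change. Their sum was 576 to 659 FPKM in *Znf143 f/f* and 856 to 918 in *Znf143 -/-* libraries, and without *Ly6a* it was 335 to 369 against 251 to 328. Part of the markers of other cells differed between genotypes as well. The counts of this paragraph stand beside 3% of all genes tested called higher and 2.99% called lower. Of 7 tested genes listed as granulocyte-macrophage progenitor markers 4 were higher (*Cd48*, *Flt3*, *Elane* and *Ctsg*). Of these 4, *Cd48* and *Flt3* are not restricted to such progenitors. The list summed to 144 to 246 FPKM in *Znf143 f/f* and 201 to 327 in *Znf143 -/-* libraries. Most of this sum was *Prtn3*, a granule protease gene with a log2 fold change of 0.03 (adjusted p = 0.97), and without it the sums were 18.4 to 22.2 and 47.9 to 60.1. Most of what then remained was *Cd48* and *Flt3*. *Mpo* of the same list had a log2 fold change of 1.46 but was not called (adjusted p = 0.215 from limma). All 7 tested genes of the list had a positive log2 fold change (median 1.46, beside 0.006 over all genes tested). Of the 7, 5 had an unadjusted p under 0.05 from limma, as did 24.2% of all genes. Of 7 tested neutrophil markers 4 were higher (*Camp*, *Ngp*, *S100a8* and *Lcn2*), with sums of 41.6 to 80.8 against 111 to 149. Of 6 tested monocyte and macrophage markers *Csf1r* and *Ms4a6c* were higher, of which *Csf1r* passed the filter only through the *Znf143 -/-* libraries. The list had sums of 14.4 to 15.1 against 21.8 to 30.4. Without *Ms4a6c* these sums were 2.56 to 3.69 against 2.74 to 3.24, and in *Znf143 f/f* libraries most of what remained was *Cd14*. *Cd14*, a monocyte receptor gene, had a log2 fold change of -0.87 (adjusted p = 0.108). The median log2 fold change of the 6 tested markers was 1.00. At an unadjusted p under 0.05 from limma, 4 of the 6 were higher and 1 lower, where 24.2% of all genes passed in either direction. *Cd48*, whose product the gate selects against, had an FPKM of 9.73, 11.1 and 9.61 against 19.7, 20.5 and 19.8, and *Flt3*, a receptor of multipotent progenitors, had 5.42, 4.99 and 5.17 against 16.1, 15.6 and 15.8. Of these markers *Flt3* alone was also called with the close libraries averaged (adjusted p = 0.0405). *Fcgr3*, a defining receptor of granulocyte-macrophage progenitors, was at 0 in all *Znf143 f/f* libraries and in 1 *Znf143 -/-* library. The part of these cells in the *Gfi1* and *Irf8* results was not tested.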

How the data were processed

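After adaptor removal (TrimGalore), the authors mapped reads to GRCm38 (mm10) by STAR and counted fragments with FeatureCounts. They deposited the FPKM of each library and the gene length. Their mean counts, fold changes and p-values from DESeq2 were not used. The other 19 samples were not analysed here.

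Fragments were recovered from FPKM times length (99.986% of 138696 values within 0.05 of a whole number). FPKM were divided by median-of-ratios size factors (0.906 to 1.201). Genes with a mean of at least 0.1 were tested with limma 3.58.1 in R 4.3.3 (eBayes with a variance trend) on log2(FPKM + 0.1), with Benjamini-Hochberg adjustment, and the fit was tested on simulated data. Tables and plots were made in Python 3.11.15 (pandas 2.3.3, matplotlib 3.10.9), and exact tests with scipy 1.17.1.

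Coordinates came from GENCODE vM21, which held 22193 of the 23116 symbols. Primers came from the study's supplement, promoter windows from RefSeq (GRCm38.p6).

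Named genes were the 10 factors, *Zfp143*, called genes of the lists, protein-coding genes within 300 kb of *Cebpa*, and the genes with the 3 highest and 3 lowest r with *Cebpa*. *Lyz2*, *Csf3r*, *Mpo*, *Prtn3*, *Cd14*, *Gfi1b* and *Fcgr3* were named after their values were seen. The factors and lists were chosen with earlier results of these data known. One gene of the target list is not reported here.

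Alternatives were FPKM as deposited, each library's own total, pseudocounts of 0.01 and 1, no filter or a mean FPKM of at least 1, voom on recovered fragments, no variance trend, a replicate block, each library left out, and, added after seeing the data, close libraries averaged.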

Additional observations from a re-analysis of the deposited data

How the results depend on the processing

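Of all genes, 1154 were called, 50.1% of them higher, and with FPKM as deposited 833, 63.5% of them higher. Without each replicate in turn, 223 to 2240 genes and 1 to 3 factors were called. Leaving out the second *Znf143 f/f* library (2240) or the first *Znf143 -/-* library (2108), which leaves a close pair in that genotype, gave the most calls. Averaging the close libraries gave 47 calls and 0 factors (84 and 0 as deposited). One factor was called with FPKM as deposited, with each library's own total and with no filter. Of 18 alternatives, *Gfi1* was called in 15 and *Cebpa* in 6, with log2 fold changes of 1.08 to 1.40 and of -0.76 to -0.43. *Cebpa* lost its call at an adjusted p of 0.171, 0.146, 0.169 and 0.186 without 1 library of a close pair. *Irf8* was called by voom (0.0376) and when the second *Znf143 f/f* library was left out (0.0293), and *Spi1* without the first *Znf143 -/-* library (0.041). *Cebpg* turned to 0.003 with FPKM as deposited, and *Klf4* ranged from -0.088 (without the first *Znf143 -/-* library) to 0.235 over the libraries left out. The cause was not tested.

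The labels do not say what a replicate number marks, so the numbers were not taken as pairs. Deviations of same-numbered libraries from their genotype means had r = -0.095, -0.088 and 0.036. The other combinations had r of -0.044 to 0.105. All of these r were small, so they cannot show which libraries form a pair. The mice were 3 pairs of littermates, but which libraries form a pair is not given in the sources used here. With the replicate block, 191 genes and 0 factors were called, with an adjusted p of 0.054 for *Gfi1* and 0.163 for *Cebpa*. Together with FPKM as deposited it gave 864 genes and 2 factors, *Gfi1* (0.00907) and *Cebpd* (0.0322), and *Cebpg* again stood at 0.003.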

Other observations

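Genes of other lineages that were examined only as markers gave further values. *Dntt*, the terminal transferase of early lymphoid cells, had 27, 0 and 28 fragments in *Znf143 f/f* and 659, 807 and 972 in *Znf143 -/-* libraries (log2 fold change 4.89, adjusted p = 0.00648 from limma, 0.0651 with the close libraries averaged). *Ly6a*, which encodes the Sca-1 antigen of the sorting gate, had an FPKM of 290, 240 and 271 against 605, 589 and 553 (log2 fold change 1.13, adjusted p = 0.00453, and 0.144 with the close libraries averaged). *Mecom*, a stem cell transcription factor gene, had 9.06, 9.28 and 9.38 against 6.79, 6.04 and 6.08 (log2 fold change -0.55, adjusted p = 0.0208, 0.182 with FPKM as deposited and 0.409 with the close libraries averaged). *Hbb-bt*, a beta globin gene, was the 1 called gene of 6 erythroid markers, where 2.99% of all genes tested were called lower. Its log2 fold change was -1.38 (adjusted p = 0.0273 from limma, and 0.263 with the close libraries averaged). The erythroid list summed to 38.1 to 53.0 FPKM in *Znf143 f/f* and 37.8 to 42.8 in *Znf143 -/-* libraries.

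Of the remaining lists, limma called 0 genes, while at an unadjusted p under 0.05 there were 2 of 5 megakaryocyte, 1 of 3 dendritic cell, 1 of 2 B cell and 0 of 2 T cell markers (24.2% of all genes), and voom called 1 megakaryocyte and 1 dendritic cell marker. Megakaryocyte markers summed to 532 to 606 FPKM in *Znf143 f/f* and 655 to 985 in *Znf143 -/-* libraries, dendritic cell markers to 105 to 182 against 169 to 354, B cell markers to 42.9 to 51.8 against 41.3 to 48.0, and T cell markers to 0.370 to 0.790 against 0.825 to 0.983.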
